A study of Gallus gallus with 45 samples.

Results

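SNAI1, SNAI2, ZEB1, ZEB2 and TWIST1 encode the Snail, Zeb and Twist transcription factors, the classical drivers of epithelial-to-mesenchymal transition (EMT). They were chosen by gene symbol, with earlier results of these data known. Of the 5 listed symbols, 4 name a gene in the deposited table, namely SNAI1 (ENSGALG00000008018), ZEB1 (ENSGALG00000007260), ZEB2 (ENSGALG00000040465) and TWIST1 (ENSGALG00000041640). SNAI2 carries no symbol there and was found by its identifier (ENSGALG00000030902) and its gene description, so it is described beside the 4 members and is not counted with them. All 5 were among the 18525 genes tested of 24356 in the table, and each had more than 5 reads in every library. The fewest reads in any library were 44 for SNAI1, 936 for SNAI2, 81 for ZEB1, 463 for ZEB2 and 43 for TWIST1.

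The samples were the neural crest domain at the midbrain level of wild-type, untreated chick embryos, dissected by hand and pooled over several embryos for each library. They cover 12 stages, which are HH5, HH6 (Hamburger-Hamilton stages) and each stage from 1 to 10 somites (1ss, which the labels also call HH7, to 10ss), with 4 libraries each at 9 stages and 3 each at 6ss, 8ss and 10ss. Stages were also pooled into 6 groups, namely HH5, HH6, HH7 (1ss to 3ss), HH8 (4ss to 6ss), HH9 (7ss to 9ss) and HH10 (10ss). At HH5 and HH6 the pieces were patches beside the primitive streak, pieces from 1ss to 7ss were neural plate border or the tips of the neural folds, and those of 8ss to 10ss were dorsal neural tube out to the front of the migrating crest, so stage cannot be told apart from the place and cell makeup of the piece. The 45 libraries held between 15.4 M and 30.5 M reads over the genes (M, 1000000 reads), with a median of 22.9 M, and none of the 63 pairs of libraries of the same stage agreed within sampling noise. Levels are CPM, the reads of a gene per 1000000 reads of the scaled library, which are not corrected for transcript length, so levels of different genes are not compared. The summed level of 6 neural crest markers had a median of 175 CPM at HH5, 82.5 CPM at HH6 and 1173 CPM at 7ss, so the libraries labelled neural crest at the earliest stages held less of these RNAs. At HH5 and HH6 most of the sum was ETS1 (means of 161 and 63.0 CPM). FOXD3 was also lower at HH6 (0.34 and 0.14 CPM), and the others were higher, among them TFAP2B (1.43 and 11.1 CPM) and SOX10 (5.65 and 6.99 CPM).

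In an EMT, cells lose junctions and apical-basal polarity and become able to migrate. Snail and Zeb proteins are zinc finger repressors that bind E-boxes in the regulatory regions of cadherin and junction genes, and Twist proteins are basic helix-loop-helix (bHLH) factors that bind E-boxes as dimers. Neural crest cells leave the dorsal neural tube through an EMT, and mesoderm leaves the primitive streak through another that uses some of the same factors. In chick, SNAI2 (Slug) is the family member classically linked to premigratory cranial neural crest, whereas in mouse that place is taken by Snai1. ZEB2 (Sip1) has roles in neural induction and crest delamination, and in mouse Twist1 is needed in cranial mesoderm and in crest-derived mesenchyme.

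The factors followed different courses over the 12 stages. SNAI1 and TWIST1 started high, had their lowest means at 7ss and higher ones from 8ss, whereas SNAI2 was lowest at HH5 and highest at 6ss. ZEB2 rose between HH5 and HH6 and was highest at 5ss, and ZEB1 was low until 4ss and highest at 10ss. Each of the 4 members changed over the stages in edgeR's quasi-likelihood test of all stages at once (adjusted p after Benjamini-Hochberg: SNAI1 8.3e-12, ZEB1 6.0e-05, ZEB2 6.0e-07, TWIST1 9.9e-10), beside 43.7% of all genes tested, and so did SNAI2 (adjusted p = 5.7e-18). The highest stage mean divided by the lowest was 50.2 for TWIST1, 14.9 for SNAI2, 11.8 for SNAI1, 3.78 for ZEB2 and 3.10 for ZEB1. In bulk RNA, fewer cells that express a gene and less of its RNA per cell cannot be told apart.

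**Figure D1:**
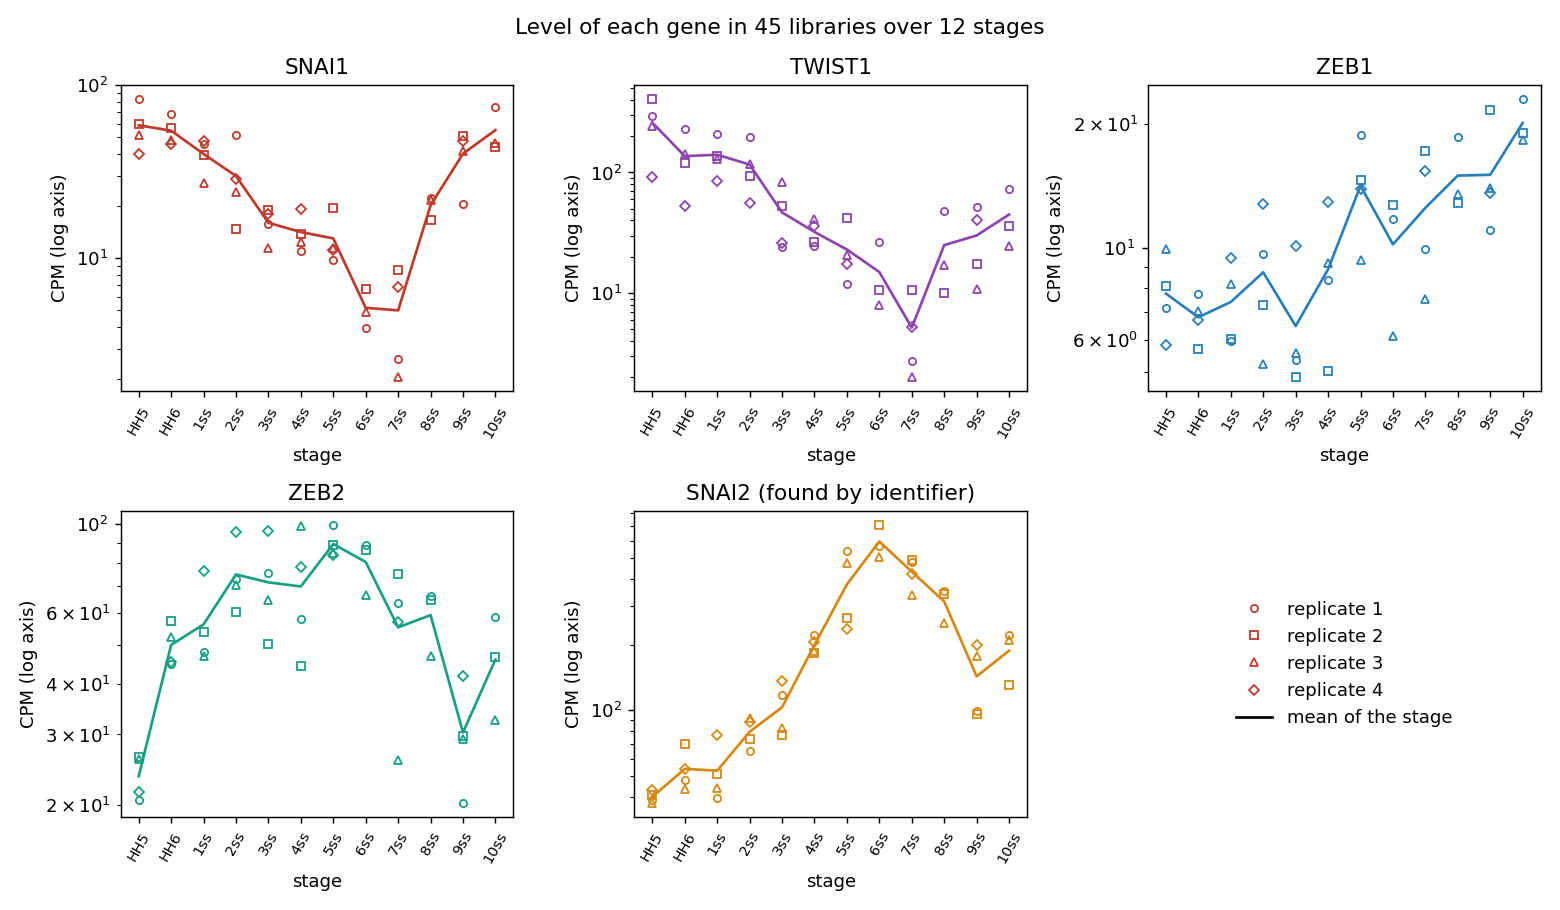
CPM of each gene (log axis, with its own range in each panel) in the 45 libraries over the 12 stages. Symbols mark the replicate number, which was not taken to pair samples across stages, and lines join the stage means. SNAI1 and TWIST1 dip to stage means of 4.99 and 5.16 CPM in the 7ss libraries, where SNAI2 stands at 432 CPM.

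SNAI1, a Snail repressor, measured 83.6, 59.7, 51.7 and 40.0 CPM in the 4 libraries of HH5. At 7ss its levels were 2.61, 8.53, 2.05 and 6.79 CPM, and at 10ss 74.9, 43.8 and 46.6 CPM. Every library of 7ss lay below every library of HH5 and of 10ss, while HH5 and 10ss overlapped. The stage means fell from 58.7 ± 18.4 CPM (SD, n = 4) at HH5 through 29.9 ± 15.7 CPM at 2ss (n = 4) and 13.0 ± 4.48 CPM at 5ss (n = 4) to 5.16 ± 1.39 CPM at 6ss (n = 3). They were 20.2 ± 3.12 CPM at 8ss (n = 3) and 40.3 ± 13.8 CPM at 9ss (n = 4). Ordered by mean, 10 of the 11 neighbouring pairs of stages overlapped, the exception being 5ss above 6ss.

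In the test of each stage against HH5, SNAI1 was lower at 6 stages, 3ss to 8ss, with a log2 fold change of -1.87 ± 0.34 (SE) at 3ss (adjusted p = 0.00013) and -3.55 ± 0.37 at 7ss (adjusted p = 6.6e-10, edgeR's quasi-likelihood test). A gene was called when its adjusted p over all genes was below 0.05 and its absolute log2 fold change above 0.75. By that rule 3.92% of all genes tested differed from HH5 at 1ss, 6.34% at 2ss, 9.44% at 3ss, 10.9% at 4ss, 15.6% at 5ss, 13.9% at 6ss, 19% at 7ss, 18.5% at 8ss, 17.6% at 9ss and 17.7% at 10ss. SNAI1 at 2ss missed the adjusted p (log2 fold change -0.98 ± 0.33, adjusted p = 0.055, edgeR's quasi-likelihood test). It was called at 2ss with a replicate block, with DESeq2's Wald test and in some fits with 1 library left out. At 9ss and 10ss SNAI1 was no longer called against HH5 (log2 fold change -0.54 ± 0.33 and -0.092 ± 0.35, adjusted p = 0.25 and 0.89). These 11 tests share the HH5 libraries.

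SNAI1 was higher again at 8ss than at 7ss, a step at which the dissected piece also changed from neural fold to dorsal neural tube with migrating crest, so a change of the gene and the change of tissue cannot be told apart. Its levels at 8ss were 22.5, 16.7 and 21.6 CPM, all above the highest library of 7ss, at a log2 fold change of 2.02 ± 0.37 (adjusted p = 0.016, edgeR's quasi-likelihood test). Few genes were called at this step, 0.0378% of those tested (7 of 18525). It compared 3 libraries with 4, so a low count of calls does not show that few genes changed. TWIST1, with a log2 fold change of 2.28 there, was not called. At the other steps between consecutive stages the share called was 1.92% from HH5 to HH6, 0.0108% from HH6 to 1ss and from 3ss to 4ss, 0% from 1ss to 2ss and from 2ss to 3ss, 0.0594% from 4ss to 5ss, 0.227% from 5ss to 6ss, 0.0054% from 6ss to 7ss, 0.459% from 8ss to 9ss and 0.184% from 9ss to 10ss. The call was lost without 7ss replicate 1 or 7ss replicate 3, the lowest libraries for this gene (log2 fold change 1.80 and 1.76, adjusted p = 0.12 for each), and with only the libraries numbered 1 to 3 (log2 fold change 2.20, adjusted p = 0.078). From 5ss to 6ss the libraries of SNAI1 did not overlap either, but the log2 fold change of -1.33 ± 0.39 was not called (adjusted p = 0.14).

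SNAI2, the Snail repressor of premigratory crest in chick, measured 38.8, 40.8, 37.5 and 43.0 CPM at HH5. At 6ss it reached 569, 711 and 505 CPM, and at 9ss it measured 99.1, 96.3, 178 and 199 CPM. The libraries of these 3 stages did not overlap one another. Its stage means were 79.6 ± 12.6 CPM (SD, n = 4) at 2ss, 199 ± 18.0 CPM at 4ss and 378 ± 150 CPM at 5ss. They were 595 ± 105 CPM at 6ss and 316 ± 55.3 CPM at 8ss, with 3 libraries each. The 5ss libraries were widely spread, at 537, 265, 474 and 236 CPM.

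Against HH5, SNAI2 was higher at all 9 stages from 2ss on, first by a log2 fold change of 0.99 ± 0.24 (adjusted p = 0.0053) and most at 6ss, by 3.89 ± 0.27 (adjusted p = 3.1e-14, edgeR's quasi-likelihood test). Of its single steps, that from 8ss to 9ss was called as lower (log2 fold change -1.14 ± 0.25, adjusted p = 0.021), beside 0.459% of genes. Leaving out replicate 2 of 8ss, or replicate 1 or 2 of 9ss, ended this call, with log2 fold changes of -1.08, -1.0 and -1.02. Marker lists moved at the same step. The summed level of 6 neural plate markers lay between 52.9 and 61.9 CPM in the libraries of 8ss and between 98.0 and 136 CPM in those of 9ss, without overlap, and the median of the neural crest list was 1157 CPM and then 774 CPM, with overlap. Their part in the lower levels of SNAI2 and ZEB2 at 9ss was not tested. No step of the rise of SNAI2 was called alone, although the libraries of 3ss and 4ss, and those of 4ss and 5ss, did not overlap (log2 fold change 0.95 ± 0.24 and 0.92 ± 0.24, adjusted p = 0.44 and 0.12).

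ZEB2 measured 20.6, 26.3, 26.0 and 21.6 CPM at HH5 and 44.9, 57.6, 52.4 and 45.5 CPM at HH6. All libraries of HH6 lay above all of HH5, at a log2 fold change of 1.08 ± 0.25 (adjusted p = 0.0089, edgeR's quasi-likelihood test over the 12 stages), at a step where 1.92% of genes were called. It was called higher than HH5 at each stage from HH6 to 8ss, with the largest log2 fold change, 1.92 ± 0.25, at 5ss (adjusted p = 2.3e-07). Its stage mean peaked at 89.3 ± 7.31 CPM (SD, n = 4) in 5ss and stood at 55.4 ± 21.0 CPM (n = 4) in 7ss. Replicate 3 of 7ss stood low there, at 25.9 CPM beside 63.5, 75.1 and 57.1 CPM.

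At 9ss ZEB2 measured 20.3, 29.8, 29.3 and 42.0 CPM, below each of the 8ss libraries at 66.3, 65.0 and 47.0 CPM. The step from 8ss was not called (log2 fold change -0.97 ± 0.26, adjusted p = 0.063). It was called under 6 of the 7 alternatives tried, among them DESeq2's Wald test (log2 fold change -0.99), and without any of 5 single libraries. Against HH5, ZEB2 at 9ss was not called (log2 fold change 0.36 ± 0.25, adjusted p = 0.31). At 10ss it was (0.96 ± 0.26, adjusted p = 0.0054), but not without 10ss replicate 1, which had the highest level of the stage.

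ZEB1, the paralog of ZEB2 and a repressor of epithelial genes, had the smallest range of stage means. Its libraries lay between 5.83 and 9.94 CPM at HH5, between 7.54 and 17.2 CPM at 7ss and at 23.0, 18.9 and 18.3 CPM at 10ss. All libraries of 10ss were above all of HH5 and of 7ss. Against HH5 it was called higher at 5ss, 8ss, 9ss and 10ss, the last by a log2 fold change of 1.37 ± 0.31 (adjusted p = 0.00091, edgeR's quasi-likelihood test), and 17.7% of genes were called at that stage. Without HH5 replicate 4, the lowest library of HH5, only 10ss was called. No step of ZEB1 between consecutive stages was called.

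TWIST1 measured 296, 408, 241 and 90.9 CPM at HH5 and 231, 120, 143 and 52.6 CPM at HH6. At 7ss it had fallen to 2.75, 10.6, 2.00 and 5.25 CPM, and at 10ss it measured 73.6, 36.3 and 24.5 CPM. The libraries of 7ss lay below every library of HH5 and of 10ss, and those of 10ss below every library of HH5. Replicate 4 was the lowest of its stage at HH5, HH6, 1ss and 2ss. The median over stages of the spread between libraries (the SD as a percentage of the mean) was 57.3% for TWIST1 and 19.7% for SNAI2.

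TWIST1 was lower than at HH5 at all 8 stages from 3ss on, first by a log2 fold change of -2.47 ± 0.56 (adjusted p = 0.0017) and most at 7ss, by -5.65 ± 0.65 (adjusted p = 7.5e-09, edgeR's quasi-likelihood test). Its mean of 5.16 ± 3.90 CPM (SD, n = 4) at 7ss was followed by 25.0 ± 20.2 CPM (n = 3) at 8ss, across the same change of tissue, but the libraries overlapped and the step was not called (log2 fold change 2.28 ± 0.60, adjusted p = 0.18). Unlike SNAI1, it was still lower at 10ss than at HH5 (log2 fold change -2.53 ± 0.62, adjusted p = 0.0022).

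**Figure D2:**
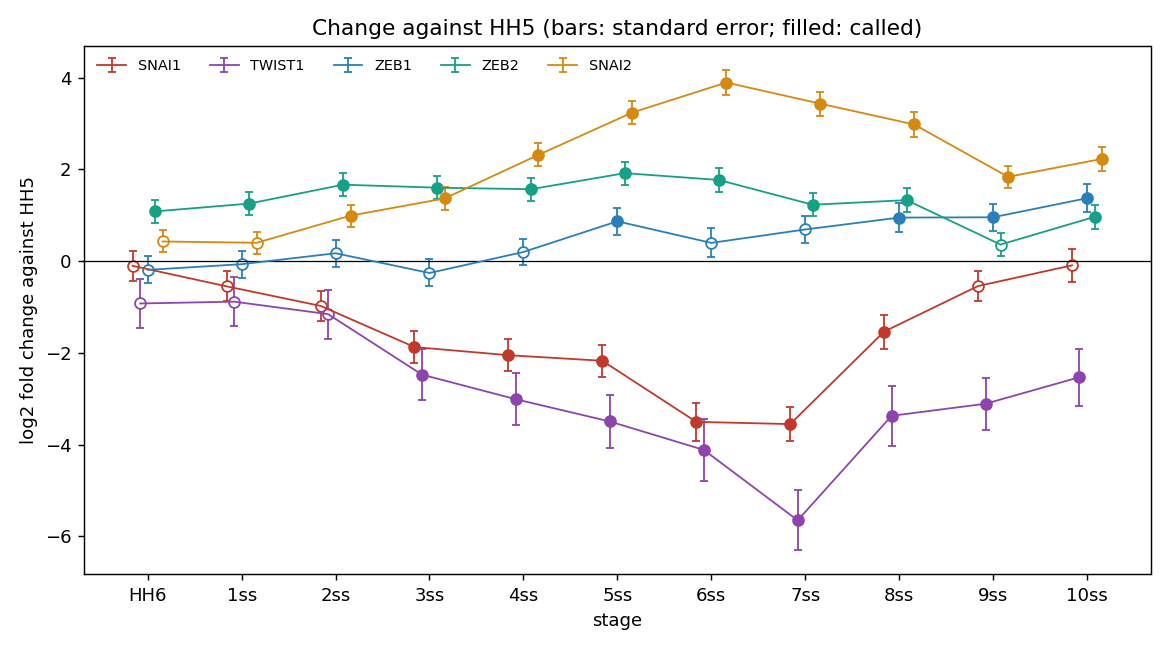
Log2 fold change of each gene against HH5 (y axis) at each later stage (x axis), with standard errors, in the fit over 12 stages. Filled points passed the thresholds. SNAI2 peaks at 3.89 at 6ss, TWIST1 is lowest at -5.65 at 7ss, and SNAI1 is back at -0.092 at 10ss.

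The pooled groups place these courses beside the rest of the transcriptome. From HH5 to HH6, 1 of the 4 members was called, beside 1.3% of all genes: ZEB2, the same rise as above, with an adjusted p of 0.035 in this fit. That call was lost without any 1 of the HH5 libraries, without replicates 2, 3 or 4 of HH6, and with only the libraries numbered 1 to 3, although the log2 fold change stayed between 1.01 and 1.14 when any 1 library was left out. From HH6 to HH7 no member was called, beside 1.02% of genes. SNAI1 had the largest log2 fold change there, -0.93 ± 0.45 (adjusted p = 0.31, unadjusted p = 0.042, edgeR's quasi-likelihood test), and DESeq2's Wald test called no member either. The fit over 12 stages did call SNAI1 lower in this comparison (-1.03, adjusted p = 0.017).

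From HH7 to HH8, when 10 of 14 listed neural crest regulators were called higher, 2 of the 4 members were called, both lower, beside 7.34% of genes called and 2.83% called lower. SNAI1 had 11.4, 25.7 and 51.8 CPM as its lowest, median and highest level over the 12 libraries of HH7, and 3.96, 11.2 and 19.7 CPM over the 11 libraries of HH8. TWIST1 had 24.1, 89.4 and 209 CPM in HH7 and 7.95, 24.7 and 41.9 CPM in HH8. The log2 fold change was -1.34 ± 0.35 for SNAI1 (adjusted p = 0.0062) and -2.07 ± 0.41 for TWIST1 (adjusted p = 0.00038, edgeR's quasi-likelihood test), and for both genes the libraries of the groups overlapped.

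SNAI2 was called higher in the same comparison, with 39.6, 77.1 and 136 CPM in HH7 as its lowest, median and highest level and 184, 265 and 711 CPM in HH8. Its groups did not overlap, and its log2 fold change was 2.24 ± 0.25 (adjusted p = 9.3e-09, edgeR's quasi-likelihood test). ZEB1 passed the adjusted p (0.026) but not the threshold on the size, at a log2 fold change of 0.57 ± 0.18. ZEB2 was not called (0.24 ± 0.17, adjusted p = 0.36). The calls of SNAI1, TWIST1 and SNAI2 held in every alternative and without any 1 library.

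From HH8 to HH9, 1 of the 4 members was called, beside 7.07% of genes: ZEB2 was lower, with a median of 84.8 CPM in HH8 and 46.9 CPM in HH9 and overlapping groups (log2 fold change -0.75 ± 0.17, adjusted p = 0.0016, edgeR's quasi-likelihood test). The value lies at the threshold of 0.75 and dropped under it when any 1 of 11 libraries was left out, with a range of -0.84 to -0.67 over all 45. SNAI1 was not called (0.96 ± 0.35, adjusted p = 0.058), and it was called with DESeq2's Wald test (adjusted p = 0.048) and without any 1 of 6 libraries. From HH9 to HH10 no member was called, beside 0.329% of genes. There SNAI1 and TWIST1 had log2 fold changes of 1.32 ± 0.49 and 1.19 ± 0.58 (unadjusted p = 0.0095 and 0.044, adjusted p = 0.26 and 0.44), and DESeq2's Wald test called none. The fit over 12 stages called SNAI1 higher (1.79, adjusted p = 0.00024). HH9 holds both kinds of dissected piece, that of 7ss and that of 8ss and 9ss.

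**Figure D3:**
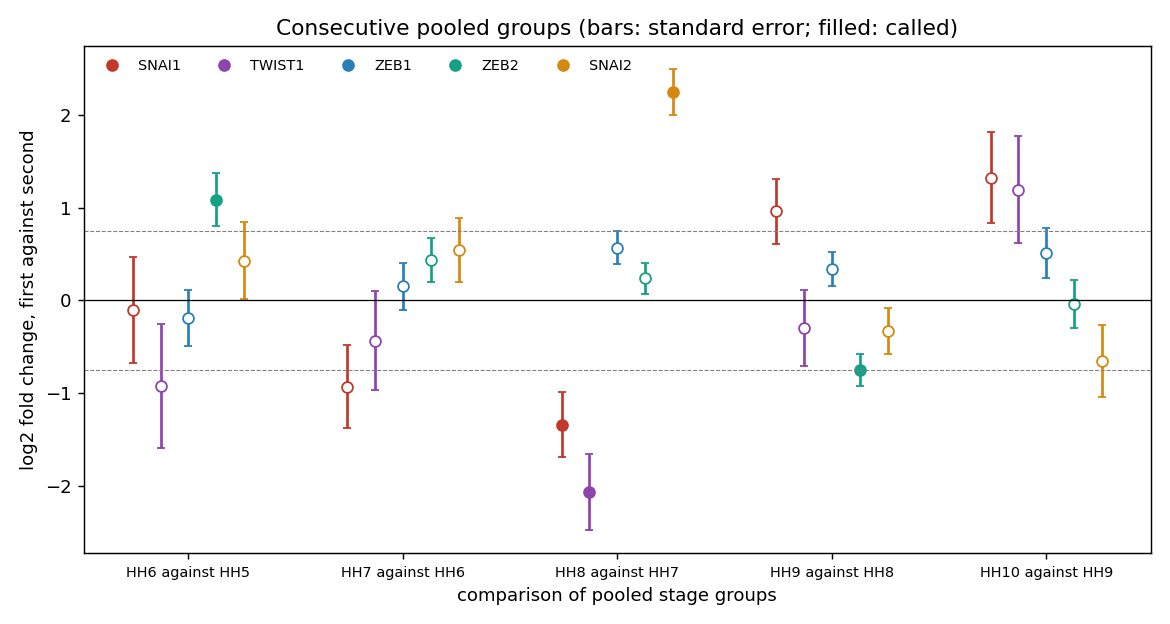
Log2 fold change of each gene (y axis) between consecutive pooled stage groups (x axis), with standard errors. Filled points passed both thresholds, and dashed lines mark the threshold on the size at 0.75. In HH8 against HH7, SNAI2 stands at 2.24, SNAI1 at -1.34 and TWIST1 at -2.07.

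Over the whole course, HH10 against HH5, 3 of the 4 members were called, beside 17% of genes. ZEB1 (log2 fold change 1.37 ± 0.32, adjusted p = 0.0014) and ZEB2 (0.96 ± 0.30, adjusted p = 0.018) were higher, and TWIST1 was lower (-2.53 ± 0.79, adjusted p = 0.016, edgeR's quasi-likelihood test). The groups of each of these genes, with 3 and 4 libraries, did not overlap. The share of all genes whose groups do not overlap was not computed. The call of ZEB2 was lost without 10ss replicate 1 (0.75, adjusted p = 0.12), and that of TWIST1 without 10ss replicate 2 or replicate 3 (-2.40 and -2.24, adjusted p = 0.069 and 0.091). SNAI1 was the member without a call, at -0.092 ± 0.62 (adjusted p = 0.94), a comparison of its end points that leaves out the low levels between them. HH8 against HH6 skips HH7: SNAI1 (-2.27 ± 0.44, adjusted p = 0.00022) and TWIST1 (-2.50 ± 0.51, adjusted p = 0.00040) were both lower, 2 of the 4 members, beside 9.62% of genes called and 6.08% called lower, and SNAI2 was higher (2.79 ± 0.40, adjusted p = 2.1e-06). ZEB1 was not called there (0.72 ± 0.26, adjusted p = 0.052), but was without any 1 of 3 libraries.

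Because both counts of a ratio come from the same library, ratios between the genes do not depend on the scaling of the libraries. Ratios of all 10 pairs were compared in HH8 against HH7 and in HH9 against HH8, which makes 20 two-sided permutation tests with Benjamini-Hochberg adjustment, and 10 of them passed. Between HH7 and HH8 the log2 ratio of SNAI1 to SNAI2 fell by 3.49 ± 0.53 (SE, n = 11 and 12, permutation p = 2.0e-05, the smallest that the resampling can give, adjusted 0.00013). The ratio of SNAI2 to TWIST1 rose by 4.13 ± 0.61 (adjusted permutation p = 0.00013), and the ratio of SNAI2 to ZEB2 by 1.92 ± 0.23 (adjusted permutation p = 0.00013). All 4 ratios of SNAI2 to another gene, and 8 of the 10 ratios in all, thus differed between these groups. The ratios share genes, so they are not independent of one another or of the calls of SNAI1, SNAI2 and TWIST1 in this comparison. The share of other gene pairs that would pass was not computed.

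SNAI1 to TWIST1 (0.64 ± 0.31, adjusted permutation p = 0.080) and ZEB1 to ZEB2 (0.30 ± 0.15, adjusted permutation p = 0.093) did not pass between HH7 and HH8. The first passed with only the libraries numbered 1 to 3 (0.88, adjusted permutation p = 0.034). Between HH8 and HH9 these were the 2 ratios that passed. The ratio of SNAI1 to TWIST1 rose by 1.28 ± 0.36 (adjusted permutation p = 0.0017), and that of ZEB1 to ZEB2 by 1.22 ± 0.22 (adjusted permutation p = 0.00023).

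**Figure D4:**
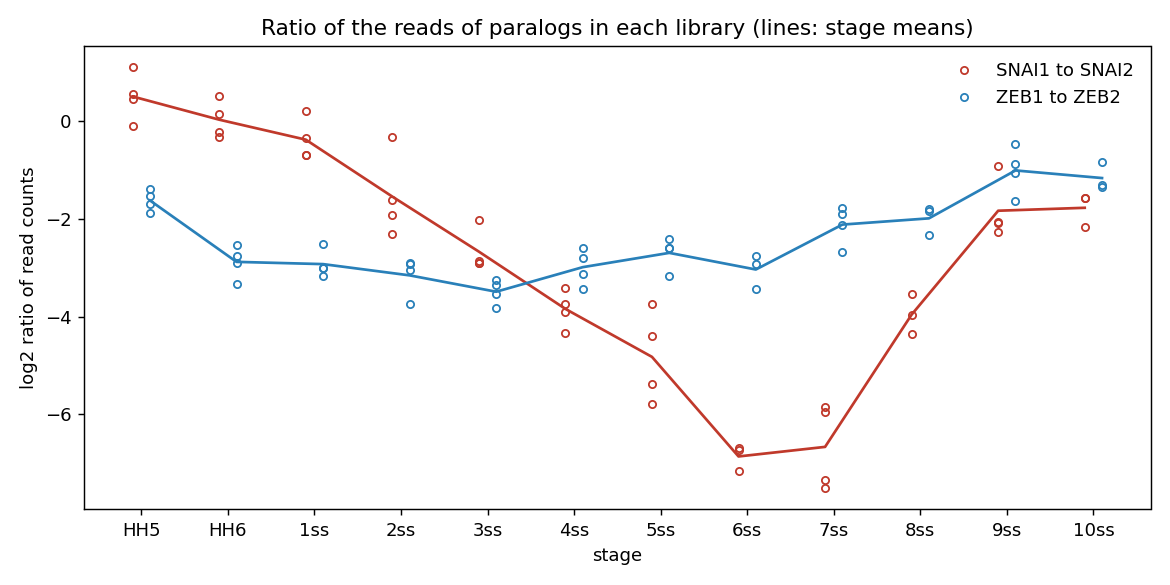
Log2 ratio of the read counts of SNAI1 to SNAI2 and of ZEB1 to ZEB2 (y axis) in each library, by stage, with lines through the stage means. The height of a ratio also depends on the lengths of both transcripts and has no meaning alone. The ratio of SNAI1 to SNAI2 is lowest at 6ss and 7ss, and its mean falls by 3.49 from HH7 to HH8.

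Across the 12 stage means of log2 CPM, Pearson's r was 0.83 between SNAI1 and TWIST1, -0.81 between SNAI1 and SNAI2 and -0.92 between SNAI2 and TWIST1. It was -0.095 between ZEB1 and ZEB2. These values describe 12 means that share the order of the stages and the makeup of the dissected pieces.

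Among 7834 other genes with a symbol and a mean of at least 5 CPM, those with the courses most like SNAI1 over the 12 stage means were IGSF21 (r = 0.95), LPAR1 (r = 0.95), a receptor for lysophosphatidic acid, and PID1 (r = 0.93). For SNAI2 they were SEMA3D (r = 0.99), a secreted semaphorin, RIPPLY3 (r = 0.99) and PLOD1 (r = 0.98), a lysyl hydroxylase of collagens. SEMA3D had a mean of 13.6 CPM at HH5 and of 108 CPM at 6ss, its highest stage as for SNAI2. For TWIST1 they were COBLL1 (r = 0.97), CXCL12 (r = 0.97), a chemokine, and PDGFA (r = 0.96), a growth factor. CXCL12 measured a mean of 188 CPM at HH5 and 14.0 CPM at 7ss, and PDGFA 643 and 30.2 CPM. For ZEB1 they were ELMOD1 (r = 0.97), CMTM3 (r = 0.96) and SCOC (r = 0.95), and for ZEB2 the transcription factor EBF2 (r = 0.91), HN1L (r = 0.91) and GSG1L (r = 0.91). All were picked for the highest r among 7834 genes over 12 ordered means, so high values come in part from that choice. The peaks can still differ: IGSF21 was highest at HH6, LPAR1 and PID1 at 10ss, and SNAI1 at HH5.

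SNAI1 and TWIST1 are also expressed in mesoderm, and the mesoderm markers moved with them over part of the course. Of 13 listed primitive streak and mesoderm genes 12 were found, and their summed level had a median of 270 CPM at HH5, 382 CPM at HH6, 104 CPM at 3ss, 30.0 CPM at 7ss and 40.4 CPM at 10ss. The list was thus high at HH5 and lowest at 7ss, as both factors were. From HH5 to HH6 its 2 largest parts had higher means, MEOX1 (92.7 and 154 CPM) and FOXC2 (95.9 and 173 CPM). TBXT (27.1 and 13.9 CPM), TBX6 (11.5 and 3.40 CPM) and EOMES (10.6 and 4.15 CPM) had lower ones, as TWIST1 did (259 and 137 CPM). None of the 12 genes was called there, and their median log2 fold change was 0.048. At 10ss the sum stayed far below its level at HH5, and SNAI1 was back in the range of HH5. The sums ranged from 155 to 358 CPM over the HH5 libraries and from 21.1 to 36.1 CPM over those of 7ss, where MESP1, MIXL1 and MSGN1 had at most 3 reads in every library. Replicate 4, the lowest HH5 library for TWIST1 and SNAI1, also had the lowest sum there. At HH6 that replicate was again the lowest for TWIST1, but its sum was 349 CPM, above that of replicate 3 at 304 CPM. FOXC2, a forkhead factor of head mesenchyme and the paraxial mesoderm, had stage means of 95.9 CPM at HH5, 173 CPM at HH6 and 2.87 CPM at 7ss.

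Between 7ss and 8ss, where SNAI1 rose about 4.05-fold in mean, the median sum of the streak and mesoderm list was 30.0 and then 32.4 CPM. Most of it was MEOX1, with means of 20.5 and 19.9 CPM. FOXC2 had means of 2.87 and 5.45 CPM (SD 4.47 at 8ss), and TBXT of 4.08 and 7.47 CPM (SD 3.07 at 8ss). The other genes of the list had means below 1 CPM at both stages. The median sum of 12 head mesoderm and heart genes was 15.1 and then 21.8 CPM, and it reached 31.6 CPM at 9ss and 41.6 CPM at 10ss. The 8ss libraries differed. Replicate 1 had the highest streak and mesoderm sum, 44.1 CPM beside 32.4 and 27.8 CPM. Its head mesoderm and heart sum was also the highest, 29.9 CPM beside 21.8 and 14.3 CPM. It also had the highest SNAI1 (22.5 CPM beside 16.7 and 21.6 CPM) and TWIST1 (48.0 CPM beside 9.98 and 17.0 CPM). At 10ss, replicate 1 had the highest level of all 5 factors and the highest sum of both lists, 91.0 CPM for streak and mesoderm beside 40.4 and 29.7 CPM, and 87.3 CPM for head mesoderm and heart beside 41.6 and 36.0 CPM. PRRX1, a homeobox factor of mesenchyme, had means of 27.6 CPM at HH5, 3.70 CPM at 7ss, 7.06 CPM at 8ss and 11.4 CPM at 9ss. The part of mesoderm in the early and the late levels of SNAI1 and TWIST1 was not tested.

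**Figure D5:**
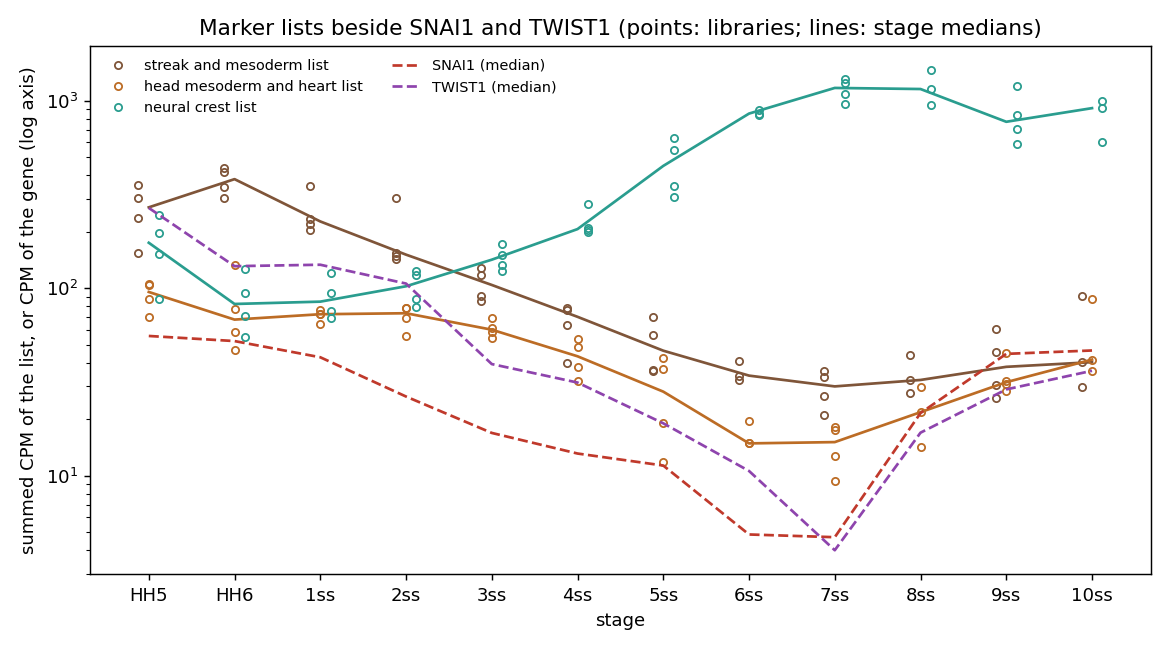
Summed CPM of 3 marker lists in each library (points) with the stage medians (solid lines), beside the median CPM of SNAI1 and TWIST1 (dashed lines), all on a log axis (y) over the stages (x). The streak and mesoderm list has its lowest median, 30.0 CPM, at 7ss, as SNAI1 and TWIST1 do, while the neural crest list is at 1173 CPM.

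Of 8 tested genes on a list of other EMT factors, 3 were lower in HH8 than in HH7, as SNAI1 and TWIST1 were. None was higher, and the median log2 fold change was -0.81 beside 0.021 over all genes tested. FOXC2 changed by -2.12 ± 0.38 (adjusted p = 7.7e-05) and PRRX1 by -1.10 ± 0.27 (adjusted p = 0.0031, edgeR's quasi-likelihood test). FOXC2 also belongs to the mesoderm list, of which 7 of 12 genes were lower and none higher. TCF15, another of the 8, is on both lists as well, with low means of 1.80 CPM at 1ss and 0.10 CPM at 6ss. Of all genes tested, 2.83% were called lower in this comparison. Among 7 bHLH partners of Twist and Id proteins, which bind and hold back those partners, 2 were higher, ID2 (1.03 ± 0.18) and ID4 (1.25 ± 0.34), and 1 was lower. Of 13 corepressors that Snail or Zeb proteins recruit, 1 was called, the LIM domain protein LMO4 (1.45 ± 0.33), a share near the 7.34% of all genes called in this comparison. LMO4 also belongs to the list of neural crest regulators.

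Epithelial and mesenchymal genes changed in part. Of 21 epithelial junction genes and regulators, 4 were lower in HH8 than in HH7 and none was higher, with a median log2 fold change of -0.40, beside 2.83% of all genes called lower. They include the keratin KRT18 (-1.25 ± 0.18), cingulin (CGN, -0.76 ± 0.15) and the claudin CLDN3 (-0.84 ± 0.29). Between HH8 and HH9, 3 of the 21 were lower, beside 7.07% of all genes called in either direction, among them CLDN1 (-1.18 ± 0.14) and CDH6 (-1.29 ± 0.27), the chick cadherin-6B that SNAI2 is known to repress. The stage mean of CDH6 was 10.4 CPM at 4ss, highest at 5ss, at 23.3 CPM, and lowest at 9ss, at 3.00 CPM. SNAI2 had means of 199 CPM at 4ss, 378 CPM at 5ss, 595 CPM at 6ss and 143 CPM at 9ss. From 4ss to 5ss the means of both genes were higher. From 5ss to 6ss that of SNAI2 was higher again and that of CDH6 lower, at 10.7 CPM (SD 6.38). CDH6 had means of 7.37 CPM at 7ss and 8.88 CPM at 8ss, and at 9ss both genes were below their peaks. A link between the courses of the 2 genes was not tested.

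Over the whole course 14 of the 21 epithelial genes were lower in HH10 than in HH5 and none was higher (median -1.72, beside -0.065 over all genes tested), where 17% of all genes were called. Markers of other epithelia were lower in part. Of 10 epidermis and placode genes 5 were called lower and 1 higher in this comparison, and all 5 endoderm genes were called lower. The summed level of 10 epidermis and placode genes had a median of 1481 CPM at HH5 (1042 to 1595 CPM over the libraries) and 146 CPM at 10ss (140 to 237 CPM). GATA3, a zinc finger factor that makes up most of that sum at HH5, had stage means of 989 and 81.3 CPM. TP63, on the same list, went the other way, with means of 3.63 and 8.78 CPM. The summed level of 5 endoderm genes had a median of 106 CPM at HH5 (81.5 to 121 CPM) and 3.47 CPM at 10ss (3.18 to 6.09 CPM). The part of these tissues in the lower epithelial genes was not tested. Among those with low adjusted p-values were CGN (-2.77 ± 0.29), KRT18 (-3.42 ± 0.37), CLDN1 (-2.01 ± 0.26), the splicing regulator ESRP1 (-1.78 ± 0.27) and KRT8 (-1.92 ± 0.32). E-cadherin (CDH1), the textbook target of Snail and Zeb proteins, was named outside the rule for these lists. Its mean was 12.3 CPM at HH5 and 7.00 CPM at 10ss (log2 fold change -0.81 ± 0.27, adjusted p = 0.026, edgeR's quasi-likelihood test).

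Of 17 genes of adhesion, matrix and proteases of mesenchymal cells, 4 were higher in HH8 than in HH7 and none was lower, with a median log2 fold change of 0.24, beside 7.34% of all genes called. Tenascin C (TNC) rose by 1.01 ± 0.21 and the protease MMP2 by 1.01 ± 0.25. In HH10 against HH5, where 17% of all genes were called, 4 of the 17 were higher, among them vimentin (VIM, 1.93 ± 0.22), COL3A1 (2.21 ± 0.47) and MMP2 (1.51 ± 0.44), and 2 were lower, fibronectin (FN1, -2.35 ± 0.30) and CDH11 (-1.45 ± 0.28). The list thus did not move one way, and its median was 0.052. At 10ss its summed level was 2037 CPM in replicate 1, the library with the highest sums of both mesoderm lists, beside 1481 and 1530 CPM. COL3A1 had a mean of 12.8 ± 8.04 CPM (SD, n = 3) at 10ss. The part of tissue makeup in these changes was not tested.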

How the data were processed

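Bulk RNA of 45 libraries was sequenced by the authors as paired reads from an unstranded kit on more than 1 run, and runs are not mapped to libraries. The authors mapped the reads with STAR (2.7.2a in the submitters' processing notes, another version in the methods) to GRCg6a and deposited counts, whole reads per gene, as a full table and as one that keeps each gene whose count exceeds 5 in any library. Another deposited table holds a scaled signal, CPM after scaling by the trimmed mean of M-values (TMM). It equalled CPM recomputed from the counts. Symbols came from the tables for 12245 genes and from a RefSeq table by identifier for 1157. The spans of SNAI1, ZEB1 and ZEB2 overlap those of 1, 2 and 3 other RefSeq genes in another genome build (GRCg7b). Whether exons overlap was not checked. Where they do, the kit keeps no strand, so reads of such genes could not be told apart.

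Tests ran in R 4.3.3 with edgeR 4.0.16 and DESeq2 1.42.0. edgeR's quasi-likelihood test was fitted to the filtered counts with TMM over all 45 libraries, once with 6 pooled groups and once with 12 stages, adjusted over 18525 genes, and called with thresholds of 0.05 on the adjusted p and 0.75 on the absolute log2 fold change. Log2 CPM used a prior count of 2, and permutation tests 100000 resamples of log2 ratios of counts plus 0.5. The procedure was tested on simulated data. Up to 6 genes of a list were named, those called with the lowest adjusted p and a mean of at least 5 CPM, and any marker needed beside a result. A result that this rule would name is not reported here. For 14 listed symbols no gene was matched, and they are not analysed here. The members and lists were chosen with earlier results of these data known. Alternatives were other size factors, DESeq2, other filters, other groups in the fit, replicate blocks, only the libraries numbered 1 to 3, another pseudocount, and each library left out. Replicates are pools of embryos, and in the fit over 12 stages p-values measure the spread between these pools. In the fit with pooled groups and in the ratio tests, the spread also holds differences between the stages merged in a group. The SE of an edgeR log2 fold change was not fitted. It was computed as the absolute log2 fold change divided by the square root of the F statistic of its test. For SNAI1 in HH6 against HH5 the SE was 0.57 with pooled groups and 0.33 with 12 stages.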

Additional observations from a re-analysis of the deposited data

Results flagged for a closer look

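In SNAI1, 5ss replicate 2 measured 19.7 CPM, far above the nearest of the other 3 libraries of that stage at 11.5 CPM. In ZEB1, 3ss replicate 4 measured 10.1 CPM, with the nearest other library at 5.56 CPM. In each case the gap was more of the range of the 4 libraries than Dixon's 95% limit allows. Only these 2 of 45 sets of 4 libraries (5 genes at 9 stages) passed that limit, and chance passes about 1 in 20.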

How the results depend on the processing

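For the 5 genes in 7 comparisons of pooled groups, 308 of 315 values under other settings kept their direction and their side of the thresholds, as did 1536 of 1575 values with 1 library left out. Of the 4 members, those called from HH5 to HH6 went from 1 to 0 with only the libraries numbered 1 to 3, where ZEB2 was at 1.07, and those from HH8 to HH9 from 1 to 0 with edgeR's filterByExpr (ZEB2 at -0.74) or to 2 with DESeq2's Wald test. In the fit over 12 stages, 1 member, SNAI1, was called from HH6 to HH7 (-1.03) and 1, again SNAI1, from HH9 to HH10 (1.79). With only the libraries numbered 1 to 3, ZEB1 in HH7 against HH6 reversed to -0.066, ZEB2 in HH10 against HH5 was not called (0.93), and 1 step of the members was called in place of 2, since the steps of ZEB2 from HH5 to HH6 (1.07, adjusted p = 0.051 in edgeR's quasi-likelihood test) and of SNAI1 from 7ss to 8ss (2.20) missed the threshold and that of ZEB2 from 8ss to 9ss passed it. DESeq2 called 4 steps. The cause was not tested.

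With 1 library left out, members called ranged from 0 to 1 from HH5 to HH6 and from 0 to 2 from HH8 to HH9, and member steps from 1 to 3. The value of SNAI1 ranged from -0.25 to 0.12 in HH6 against HH5 and from -0.38 to 0.14 in HH10 against HH5, and that of ZEB2 from -0.26 to 0.16 in HH10 against HH9. The steps ranged from 1.76 to 2.41 for SNAI1 from 7ss to 8ss and from -1.34 to -1.0 for SNAI2 from 8ss to 9ss. ZEB1 was called against HH5 at 1 to 5 stages.

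Deviations from the stage means of same-numbered libraries had a median correlation of 0.063 (234 pairs, 105 of them over 0.1), beside -0.024 for different numbers (693 pairs, 187 over 0.1). Libraries numbered 4 did deviate together (median 0.45, 30 of 36 pairs over 0.1), and those numbered 1, 2 and 3 less so (medians 0.057, 0.027 and 0.033). These numbers are those of the sample titles, where 6ss, 8ss and 10ss have no number 4. The sample descriptions number the 10ss libraries titled 2 and 3 as 3 and 4. The setting with only the libraries numbered 1 to 3 therefore kept every 10ss library. Since not every pair was over 0.1, the numbers were not taken to pair the samples, and 18 of 45 libraries correlated best with their own number. That rule cannot exclude a structure shared by part of the libraries, such as those numbered 4. The main tests did not model it. A replicate block moved the count of called steps from 2 to 3 by adding ZEB2 from 8ss to 9ss (-1.04, adjusted p = 0.021 in edgeR's quasi-likelihood test) and changed no count of members called in the pooled groups. SNAI1 and TWIST1 had down to 44 and 43 reads in a library, which limits their precision at 7ss.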
